A study of Mus musculus with 12 samples.

Results

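Peaks of ZBTB43, a BTB and zinc-finger DNA-binding protein, were examined in 47 very long genes, most of which act in neurons. A peak was assigned to a gene when its midpoint lay within the gene's annotated span (GENCODE M21, mm10). By this rule 4340 of the 175775 peaks on methylated DNA, or 2.47%, and 274 of the 14694 peaks on unmethylated DNA, or 1.86%, lay in the 47 genes. The unmethylated DNA, called TKO, came from a male ES cell line that carries the genotype Dnmt1-/-Dnmt3a-/-Dnmt3b-/-, lacks these DNA methyltransferases, is derived from a single clone, clone19, and has a labelled age of 3.5 dpc. The methylated DNA, called SssI, came from lung of wild-type male C57BL/6N adults aged 2 months and was treated in vitro with the bacterial CpG methyltransferase M.SssI after it was fragmented. In affinity-seq, naked genomic DNA was captured with ZBTB43 fused to maltose-binding protein (MBP) and sequenced, and capture with MBP alone was the background on the same DNA. There were 2 libraries of each protein on each DNA, 8 in all, and the authors pooled the 2 before calling peaks. No replicate error can therefore be given and no test was possible. Both DNAs also differ in strain and tissue of origin, so methylation and DNA source cannot be told apart.

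The study related ZBTB43 to purine-pyrimidine repeats, in which purines (A, G) and pyrimidines (C, T) alternate along the strand. CA/TG runs are the common kind in the mouse genome, and alternating sequence of this type is prone to form Z-DNA, a left-handed double helix. The 47 genes are mostly intron. They encode cell adhesion molecules, receptors, channel partners and scaffolds of synapses, and some are classical common fragile sites, which break when DNA replication is slowed. The assay used DNA freed of chromatin, so the activity of these genes in neurons has no part in the measurement and their neuronal label could not be checked. Spans ran from 370.6 kb for Cntn6 to 2270.7 kb for Ptprd, with a median of 1106 kb.

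The sequences under the strongest peaks show what the protein captured in these introns. Below are the longest alternating tracts, runs of at least 12 bases in which purine and pyrimidine alternate and which do not consist of A and T only, under the best-ranked TKO peak of 6 genes (mm10, plus strand, CpGs in capitals). Peaks were ranked within their list by the deposited score, which is 10 times the −log10 q-value.
Csmd3, intron 32, chr15:47813656-47813672: gcaCGtgcacacacatg
Tenm3, intron 2, chr8:48444196-48444230: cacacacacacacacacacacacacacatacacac
Sox5, chr6:144509969-144510007: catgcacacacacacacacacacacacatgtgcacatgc
Pcdh15, intron 8, chr10:74231702-74231998: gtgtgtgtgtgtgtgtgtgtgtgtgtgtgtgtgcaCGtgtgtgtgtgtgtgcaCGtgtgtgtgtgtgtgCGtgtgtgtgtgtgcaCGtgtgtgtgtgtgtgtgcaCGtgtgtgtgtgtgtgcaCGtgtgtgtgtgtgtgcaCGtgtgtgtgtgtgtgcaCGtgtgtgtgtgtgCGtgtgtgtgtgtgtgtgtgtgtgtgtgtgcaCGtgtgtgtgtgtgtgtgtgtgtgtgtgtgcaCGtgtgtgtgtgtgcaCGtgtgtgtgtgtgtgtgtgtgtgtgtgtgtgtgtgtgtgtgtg
Dlg2, intron 19, chr7:92336973-92337003: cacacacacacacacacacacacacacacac
Lrrc4c, intron 5, chr2:97563258-97563297: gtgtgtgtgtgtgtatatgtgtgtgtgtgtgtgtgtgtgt
The Pcdh15 tract is 297 bases long and holds 12 CpGs. Tracts of Tenm3, Sox5, Dlg2 and Lrrc4c hold none, and that of Csmd3 is only 17 bases long.

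For the methylated DNA, the best-ranked SssI peak without a TKO peak and the best-ranked SssI peak without any CpG are shown in the same way, because they mark a strong site of the SssI list alone and a strong site without a CpG.
Macrod2, intron 5, chr2:141322342-141322411: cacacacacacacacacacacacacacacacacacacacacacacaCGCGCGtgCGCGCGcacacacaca
Lrp1b, intron 2, chr2:42251977-42252031: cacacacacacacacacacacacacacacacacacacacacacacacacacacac
The Macrod2 tract is 70 bases long and has 6 CpGs at its 3' side. The Lrp1b peak has a score of 2130, rank 299 of the SssI list, and contains no CpG in its 374 bases of mm10. Captured fragments can reach past the edges of a peak, and CpGs beside it were not counted.

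Some of the strongest TKO peaks had no such tract. Of the 274 TKO peaks, 8 contained no tract of 12 bases or more, and among them were the second-ranked peak of Tenm3, at rank 356 of the list, and the best-ranked peak of Tenm2, at rank 652.5. In both, and in the third-ranked of the 8, in Grid1, the sequence was a longer unit repeated in tandem, each copy with a short CA stretch. By the count of recurring words described below, 5 of the 8, or 62.5% (30.6 to 86.3), held such a unit. Such peaks were not particular to these genes. In other introns, 280 of 6072 TKO peaks had no tract, and 196 of the 280, or 70.0% (64.4 to 75.1), held such a unit. The peaks in Sox5, Ptprt and Ctnna3 did not pass that count, and the Ctnna3 peak held 0 short stretches. The windows of 150 bases with the most such stretches are shown for the 3 best-ranked peaks without a tract and for Csmd3, with each CACAC or GTGTG stretch in capitals. These windows were chosen after the sequences had been seen.
Tenm3, intron 11, chr8:48331788-48331937: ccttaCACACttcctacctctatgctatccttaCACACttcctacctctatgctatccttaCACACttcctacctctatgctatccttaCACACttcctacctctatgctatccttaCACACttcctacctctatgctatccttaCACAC
Tenm2, intron 2, chr11:37112652-37112801: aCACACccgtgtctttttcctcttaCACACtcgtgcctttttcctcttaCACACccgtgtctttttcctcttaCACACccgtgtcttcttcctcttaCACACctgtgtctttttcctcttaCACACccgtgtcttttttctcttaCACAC
Grid1, intron 4, chr14:35223888-35224037: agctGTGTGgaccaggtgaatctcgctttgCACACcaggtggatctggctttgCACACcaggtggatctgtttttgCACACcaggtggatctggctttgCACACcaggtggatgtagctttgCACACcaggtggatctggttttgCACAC
Csmd3, intron 32, chr15:47813520-47813669: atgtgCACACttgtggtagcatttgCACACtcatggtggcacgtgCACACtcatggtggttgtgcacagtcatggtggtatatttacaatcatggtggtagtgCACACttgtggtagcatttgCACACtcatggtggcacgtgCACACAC
Each of these windows, picked as the richest in its peak, holds 6 or 7 separate stretches. Of 380418 windows of 150 bases laid end to end over the 47 genes, 27.6% held at least 1 CACAC or GTGTG, searched on both strands as these letters, and 0.358% held at least 5 separate stretches. The end-to-end windows were not picked for their stretches, so these shares are not a like-for-like measure of how rare the shown windows are.

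Peaks on methylated DNA were about as dense in the introns of the 47 genes as in other introns, whereas peaks on unmethylated DNA were sparser. In 56.05 Mb of intron, 4302 SssI peaks gave 7.68 peaks per 100 kb (95% exact Poisson interval 7.45 to 7.91), beside 7.80 (7.75 to 7.86) in the introns of all other protein-coding genes. The 273 TKO peaks gave 0.487 per 100 kb (0.431 to 0.548), beside 0.693 (0.675 to 0.710). Here and below, intervals cover counting error only. The lists hold no read counts, so the depth of each library was not computed.

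The ratio of listed to other introns was 0.984 (0.954 to 1.01) for SssI and 0.703 (0.621 to 0.794) for TKO. Against the introns of the 520 other protein-coding genes of 300 kb or more, it was 1.00 (0.972 to 1.04) for SssI and 0.747 (0.655 to 0.849) for TKO. There were 15.8 SssI peaks for each TKO peak in the listed introns, compared with 11.3 in other introns and 11.7 in those of the other long genes. Base composition moved with this difference. The listed introns had 39.1% GC and 5.99 CpGs per kb, the other introns 42.6% and 8.84, and the introns of the other long genes 41.0% and 7.53. Alternating tracts of 24 bp or more were about as frequent in all of them, at 20.2, 19.1 and 19.6 per 100 kb, and per tract of 12 bp or more the TKO ratio to other introns was 0.724 (0.639 to 0.817). The part of CpG content in the TKO difference was not tested beyond the comparison by CpG number given below.

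The 47 genes differed 4.20-fold among themselves on methylated DNA. Density ran from 3.86 SssI peaks per 100 kb in Fgf14 to 16.2 in Cdh13, with a median of 7.02, and every gene had at least 26 peaks. On unmethylated DNA the median was 0.381 TKO peaks per 100 kb, with 5 peaks in the median gene and 24 in the richest. At least 1 TKO peak lay in 45 of the 47 genes, or 95.7%, beside 85.0% of the 520 other long genes, which are mostly shorter. Of the 47 genes, 30 were below the median TKO density of the other long genes (0.513 per 100 kb), 10 below their lower quartile and 5 above their upper quartile. For SssI, 25 were below the median (7.20), 6 below the lower quartile and 12 above the upper quartile.

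**Figure D1:**
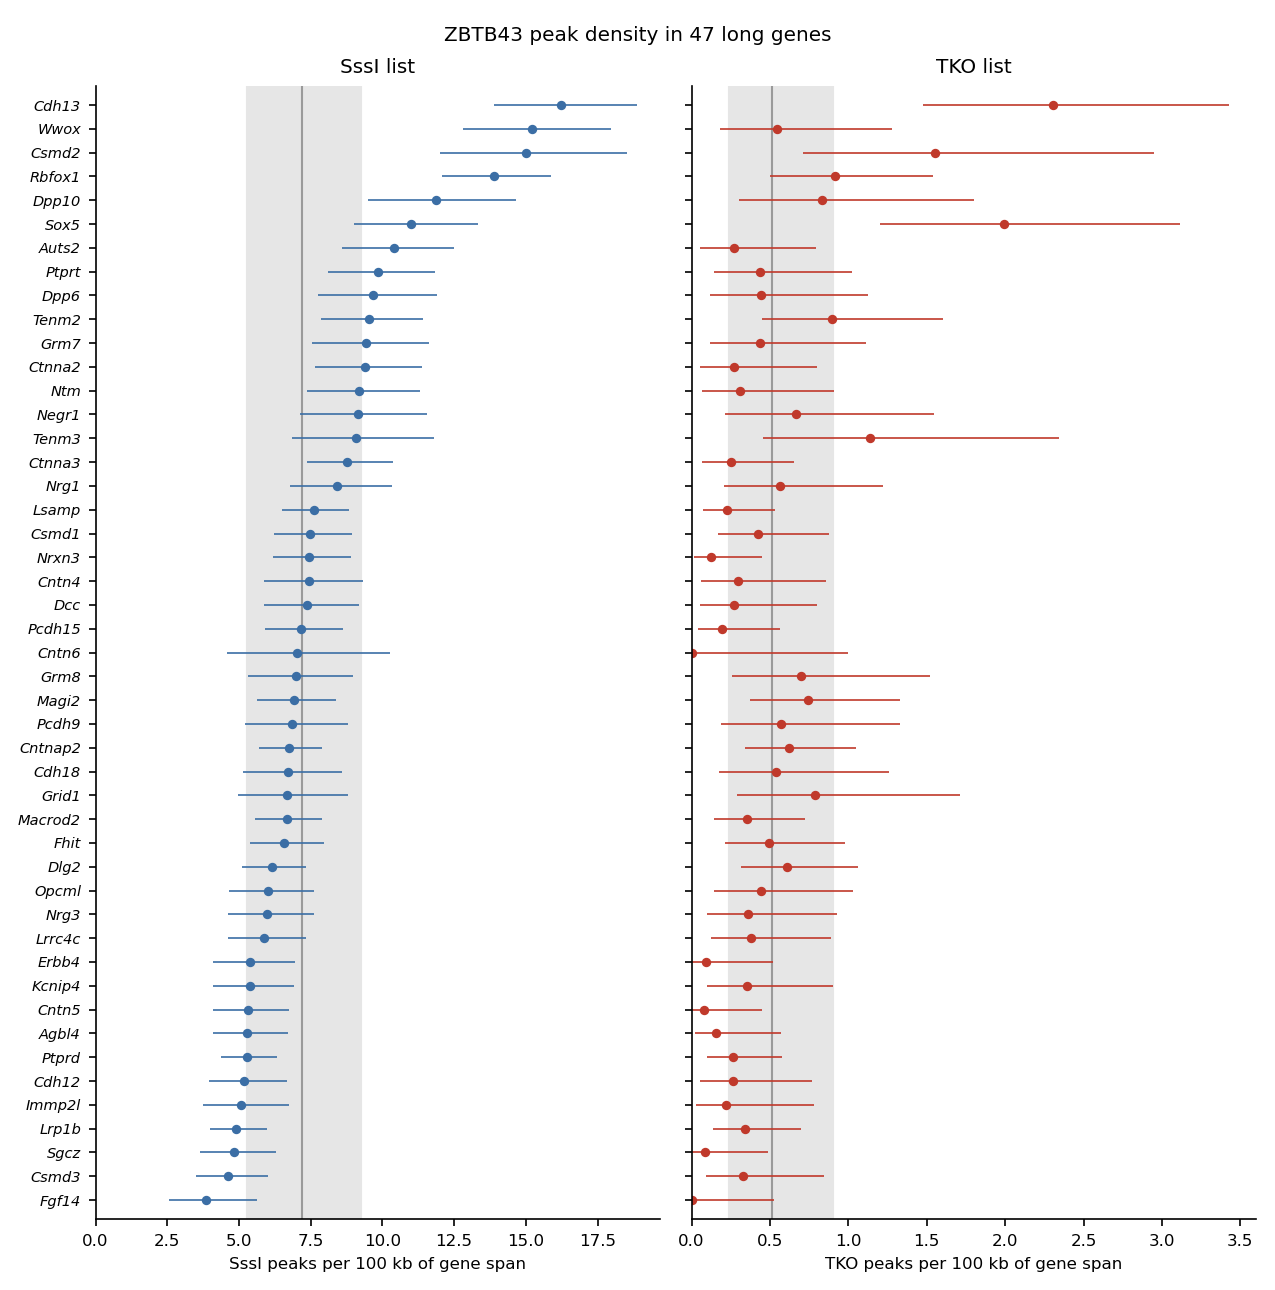
Peaks per 100 kb of gene span in the SssI list (left, blue) and the TKO list (right, red) for the 47 genes, ordered by SssI density; points are densities, bars 95% exact Poisson intervals, and the grey band and line are the quartiles and median of 520 other genes of 300 kb or more. Cdh13 is at the top of both lists, with 16.2 SssI and 2.31 TKO peaks per 100 kb, and Fgf14 is at the bottom, with 3.86 and 0.

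Cdh13, which encodes the membrane-anchored T-cadherin, had the highest density on both DNAs. Its 1041.2 kb on chromosome 8 held 169 SssI peaks, or 16.2 per 100 kb (13.9 to 18.9), and 24 TKO peaks, or 2.31 (1.48 to 3.43). All 24 TKO peaks overlapped an SssI peak, and 7 of them lay in intron 5, a 116.2-kb intron with 26 SssI peaks. Wwox, an oxidoreductase gene at a common fragile site, followed on methylated DNA with 139 SssI peaks, or 15.2 per 100 kb (12.8 to 17.98). Its TKO peaks numbered 5, or 0.548 (0.178 to 1.28). The 2 genes thus had overlapping SssI intervals, while their TKO intervals did not overlap. Csmd2 encodes a large CUB and sushi domain membrane protein, and it had 87 SssI peaks, or 15.01 per 100 kb (12.02 to 18.5), and 9 TKO peaks, or 1.55 (0.710 to 2.95). The splicing regulator gene Rbfox1 held the most SssI peaks of all, 212, at 13.9 per 100 kb (12.1 to 15.9), and 14 TKO peaks, at 0.917 (0.502 to 1.54). The intervals of these 4 SssI densities overlap, so their order is not resolved.

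Sox5, which encodes a SoxD transcription factor, stood second on unmethylated DNA. It had 19 TKO peaks, or 1.99 per 100 kb (1.20 to 3.11), and 105 SssI peaks, or 11.0 (9.01 to 13.3). As many as 18.1% of its SssI peaks overlapped a TKO peak, the highest share among the 47 genes, whose median was 5.69%. Tenm3, a teneurin gene that acts in the matching of synaptic partners, was the fourth, with 7 TKO peaks, or 1.14 per 100 kb (0.457 to 2.34), beside 56 SssI peaks. Cdh13 and Sox5 together held 43 of the 274 TKO peaks, or 15.7%, and without them the ratio of TKO density to other introns fell from 0.703 to 0.614.

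At the other end, Fgf14, which encodes an intracellular partner of voltage-gated sodium channels, had 27 SssI peaks in 699.2 kb, or 3.86 per 100 kb (2.54 to 5.62), and 0 TKO peaks, which allows up to 0.528 per 100 kb. Cntn6, a contactin gene and the shortest of the 47, also had 0 TKO peaks, but its 370.6 kb allows up to 0.995 per 100 kb, and its 26 SssI peaks gave 7.02 (4.58 to 10.3), the median of the 47 genes. A single TKO peak lay in each of Cntn5, a contactin gene, Sgcz, which encodes a sarcoglycan, and Erbb4, the receptor gene for neuregulins. Their SssI peaks numbered 66, 55 and 58, at 5.31, 4.83 and 5.39 per 100 kb. Csmd3 had 56 SssI peaks, or 4.62 per 100 kb (3.49 to 6.00), and the low-density lipoprotein receptor-related gene Lrp1b had 101, or 4.91 (4.00 to 5.96). Both genes still held strong peaks, the best-ranked TKO peak of all 47 genes in Csmd3 and an SssI peak of rank 299 in Lrp1b.

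By role, the 3 genes for RNA-binding and nuclear proteins were the densest group on both DNAs. Rbfox1, Auts2 and Sox5 together had 12.05 SssI peaks per 100 kb (10.9 to 13.2) and 1.00 TKO peaks per 100 kb (0.703 to 1.39). Auts2, whose protein joins a Polycomb-type complex in neurons, had 115 SssI peaks but only 3 TKO peaks. The other 11 groups had between 6.46 and 8.56 SssI peaks per 100 kb and between 0.286 and 0.667 TKO peaks per 100 kb. Sox5 held 19 of the 36 TKO peaks of the RNA-binding and nuclear group. The TKO interval of that group overlaps that of the synaptic scaffold genes (0.423 to 1.00), so its TKO rank is not resolved. It was also the richest in alternating tracts of 24 bp or more, at 29.45 per 100 kb, beside at most 24.5 in the others.

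The 7 cadherin and catenin genes had 8.56 SssI and 0.573 TKO peaks per 100 kb, but 24 of their 47 TKO peaks were those of Cdh13. The classical cadherin genes Cdh12 and Cdh18 had 59 and 62 SssI peaks, with 3 and 5 TKO peaks. Protocadherin genes Pcdh9 and Pcdh15, the latter encoding a tip-link protein of hair cells, had 60 and 111 SssI peaks, with 5 and 3 TKO peaks. The alpha-catenin genes Ctnna2 and Ctnna3 had 103 and 138 SssI peaks, with 3 and 4 TKO peaks. Without Cdh13, no member of the group was above 0.570 TKO peaks per 100 kb.

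The 7 IgLON and contactin genes, which encode membrane-anchored adhesion proteins of axons, had the lowest TKO density of any group, 0.286 per 100 kb (0.179 to 0.433), at an SssI density of 7.29. This TKO interval overlaps those of all groups except the RNA-binding and nuclear genes, so the rank is not resolved. Lsamp had 167 SssI and 5 TKO peaks in 2197.3 kb. Opcml had 68 and 5, Ntm 89 and 3, and Negr1 69 and 5. Contactin 4, Cntn4, had 76 and 3. In the neurexin family, Cntnap2 had 151 SssI and 14 TKO peaks in 2244.9 kb, whereas Nrxn3, which encodes a presynaptic adhesion receptor, had 120 and 2. Their SssI densities were alike, at 6.73 and 7.44 per 100 kb, and their TKO densities were 0.624 (0.341 to 1.05) and 0.124 (0.0150 to 0.448).

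Among receptors, Csmd1 had 123 SssI and 7 TKO peaks, and Lrp1b also had 7 TKO peaks. The receptor tyrosine phosphatase genes Ptprd and Ptprt had 120 and 112 SssI peaks, with 6 and 5 TKO peaks, so that Ptprt, about as rich in a shorter span, had the higher SssI density (9.83 against 5.28 per 100 kb). Nrg1 and Nrg3, which encode growth factors that act on ErbB receptors, had 90 and 66 SssI peaks, with 6 and 4 TKO peaks, and their receptor gene Erbb4 was described above. The netrin receptor gene Dcc had 81 SssI and 3 TKO peaks. Lrrc4c, which encodes a ligand of netrin-G, had 77 and 5. Tenm2 had 117 and 11.

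The glutamate receptor genes were Grid1, with 51 SssI and 6 TKO peaks, Grm7, with 87 and 4, and Grm8, with 60 and 6. Of the channel partners, the potassium channel subunit genes Dpp6 and Dpp10 had 88 and 86 SssI peaks, with 4 and 6 TKO peaks, and the calcium sensor gene Kcnip4 had 61 and 4. The synaptic scaffold genes Dlg2 and Magi2 had 121 and 102 SssI peaks, with 12 and 11 TKO peaks, and this pair had 0.667 TKO peaks per 100 kb (0.423 to 1.00). Among genes grouped here under other cellular roles, the hydrolase gene Fhit had 106 SssI and 8 TKO peaks. The ADP-ribose hydrolase gene Macrod2 had 133 and 7, the mitochondrial peptidase gene Immp2l 47 and 2, and the tubulin deglutamylase gene Agbl4 67 and 2. The 6 genes grouped here as common fragile-site genes (Fhit, Wwox, Immp2l, Lrp1b, Macrod2 and Ctnna3) had 7.31 SssI peaks per 100 kb (6.77 to 7.89) and 0.363 TKO peaks (0.250 to 0.510). The 41 others had 7.66 (7.42 to 7.91) and 0.502 (0.441 to 0.570), so the intervals of both lists overlap. This grouping is not a full list of fragile sites, and the 41 may include other fragile-site genes.

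SssI density followed the density of long alternating tracts from gene to gene. Across the 47 genes, SssI peaks per 100 kb and tracts of 24 bp or more per 100 kb had a Pearson r of 0.90 and a Spearman rho of 0.90. For TKO peaks, these were 0.66 and 0.41. Across the 520 other long genes, the rho was 0.87 for SssI and 0.66 for TKO. SssI density had a rho of 0.70 with GC content over the 47 genes, and GC content had a rho of 0.51 with tract density. All of these are across genes that share the same libraries and are given as a description. Auts2 and Wwox were rich in long tracts (27.8 and 30.9 per 100 kb) and in SssI peaks. They had 0.271 (0.0559 to 0.793) and 0.548 (0.178 to 1.28) TKO peaks per 100 kb, from 3 and 5 peaks. Cdh13 and Sox5, with 37.0 and 32.2 tracts, had 2.31 (1.48 to 3.43) and 1.99 (1.20 to 3.11). The TKO intervals of Wwox and Sox5 overlap. The median gene held 87 SssI peaks and 5 TKO peaks, and the part of these low TKO counts in the lower TKO correlation was not tested.

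**Figure D2:**
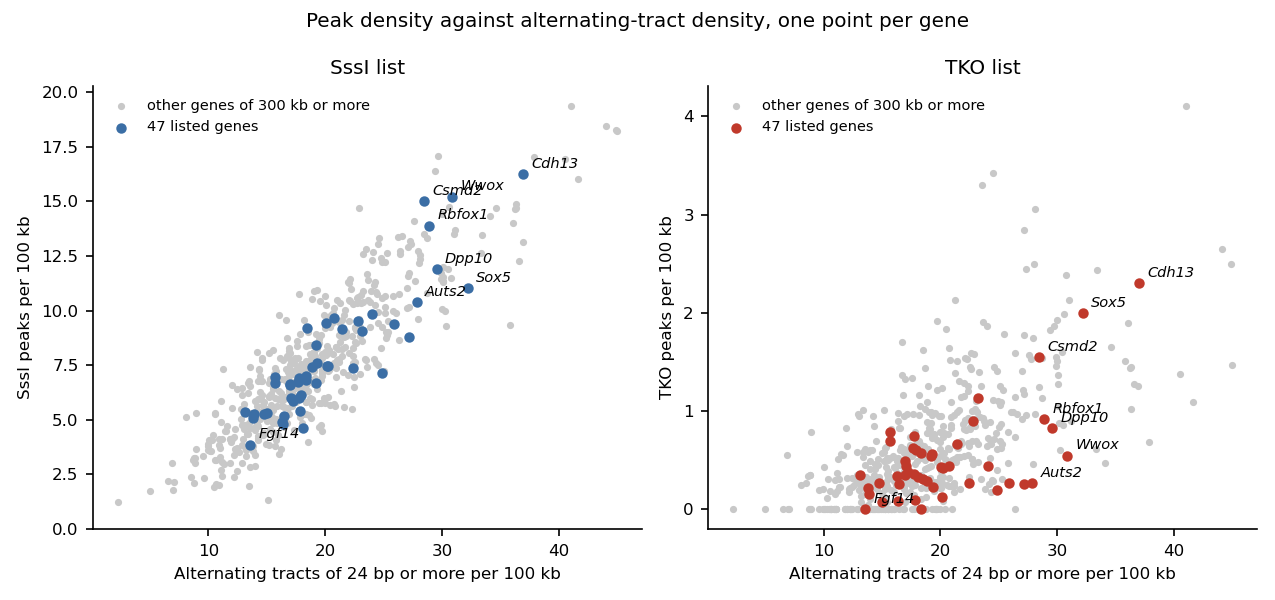
SssI peaks (left) and TKO peaks (right) per 100 kb against alternating tracts of 24 bp or more per 100 kb, with 1 point per gene; coloured points are the 47 listed genes and grey points 520 other genes of 300 kb or more. The coloured points lie along a line for SssI (rho 0.90) and spread widely for TKO (rho 0.41). On the TKO side, Auts2 and Wwox, from 3 and 5 peaks, lie below Cdh13 and Sox5, and the intervals of Wwox and Sox5 overlap.

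Peaks were spread along the whole length of the genes. Of the 4340 SssI peaks, 38 had their midpoint in an exon of any transcript, or 0.876%, and of the 274 TKO peaks only 1 did. SssI peaks overlapped coding sequence at 6 places, 1 each in Cdh13, Dpp6, Grm7, Lrp1b, Lsamp and Macrod2. No TKO peak overlapped coding sequence, and 0 of 274 allows a share of up to 1.09%, taken as 3 counts of 274. Within 3000 bp downstream of the annotated gene start there were 12 SssI peaks, in 12 genes, the nearest at 246 bp in Tenm3, and 0 TKO peaks, the nearest being at 5800 bp in Dlg2. At a median of 0.381 TKO peaks per 100 kb, such short windows would hold few or none. The share of bases in exons, coding sequence and start windows was not computed, so the counts do not show that peaks avoided them.

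When each gene was cut from start to end into 10 parts of equal length, every part held between 9.08% and 11.2% of the SssI peaks and between 7.66% and 12.8% of the TKO peaks. The first part had 11.2% of SssI peaks (95% Wilson interval 10.3 to 12.1) and 10.4% of the long tracts. Intron 1 of the longest coding transcript held 24.6% of the SssI peaks in introns (23.3 to 25.99) and 21.7% of the TKO peaks (17.1 to 27.2), and it made up 24.5% of intron bases. The 1014.9-kb first intron of Kcnip4, the longest among these transcripts, held 54 SssI and 3 TKO peaks, and the 915.3-kb first intron of Nrg1 held 83 and 6, which were all the TKO peaks of Nrg1. In Wwox, by contrast, 96 of the SssI peaks lay in the last intron, number 8, which is 639.4 kb long.

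Introns of 300 kb or more, 44 in 30 genes, had 7.54 SssI peaks per 100 kb (7.18 to 7.93), and those of 50 to 100 kb had 8.02 (7.37 to 8.72). TKO density was 0.380 (0.301 to 0.474) in introns of 300 kb or more, 0.552 (0.446 to 0.675) at 100 to 300 kb, 0.641 (0.466 to 0.860) at 50 to 100 kb, 0.416 (0.267 to 0.619) at 10 to 50 kb and 0.724 (0.374 to 1.26) below 10 kb. It did not follow intron length in order, and the intervals of all 5 classes overlap. All 98 introns of 100 to 300 kb and all 44 longer ones held at least 1 SssI peak. Neighbouring SssI peaks lay a median of 8.29 kb apart (quartiles 3.27 and 17.4 kb), and 6.41% of neighbours were within 1 kb. The longest stretch without an SssI peak was 116.8 kb, in Cntn5, while in Cdh13 no stretch exceeded 26.7 kb.

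**Figure D3:**
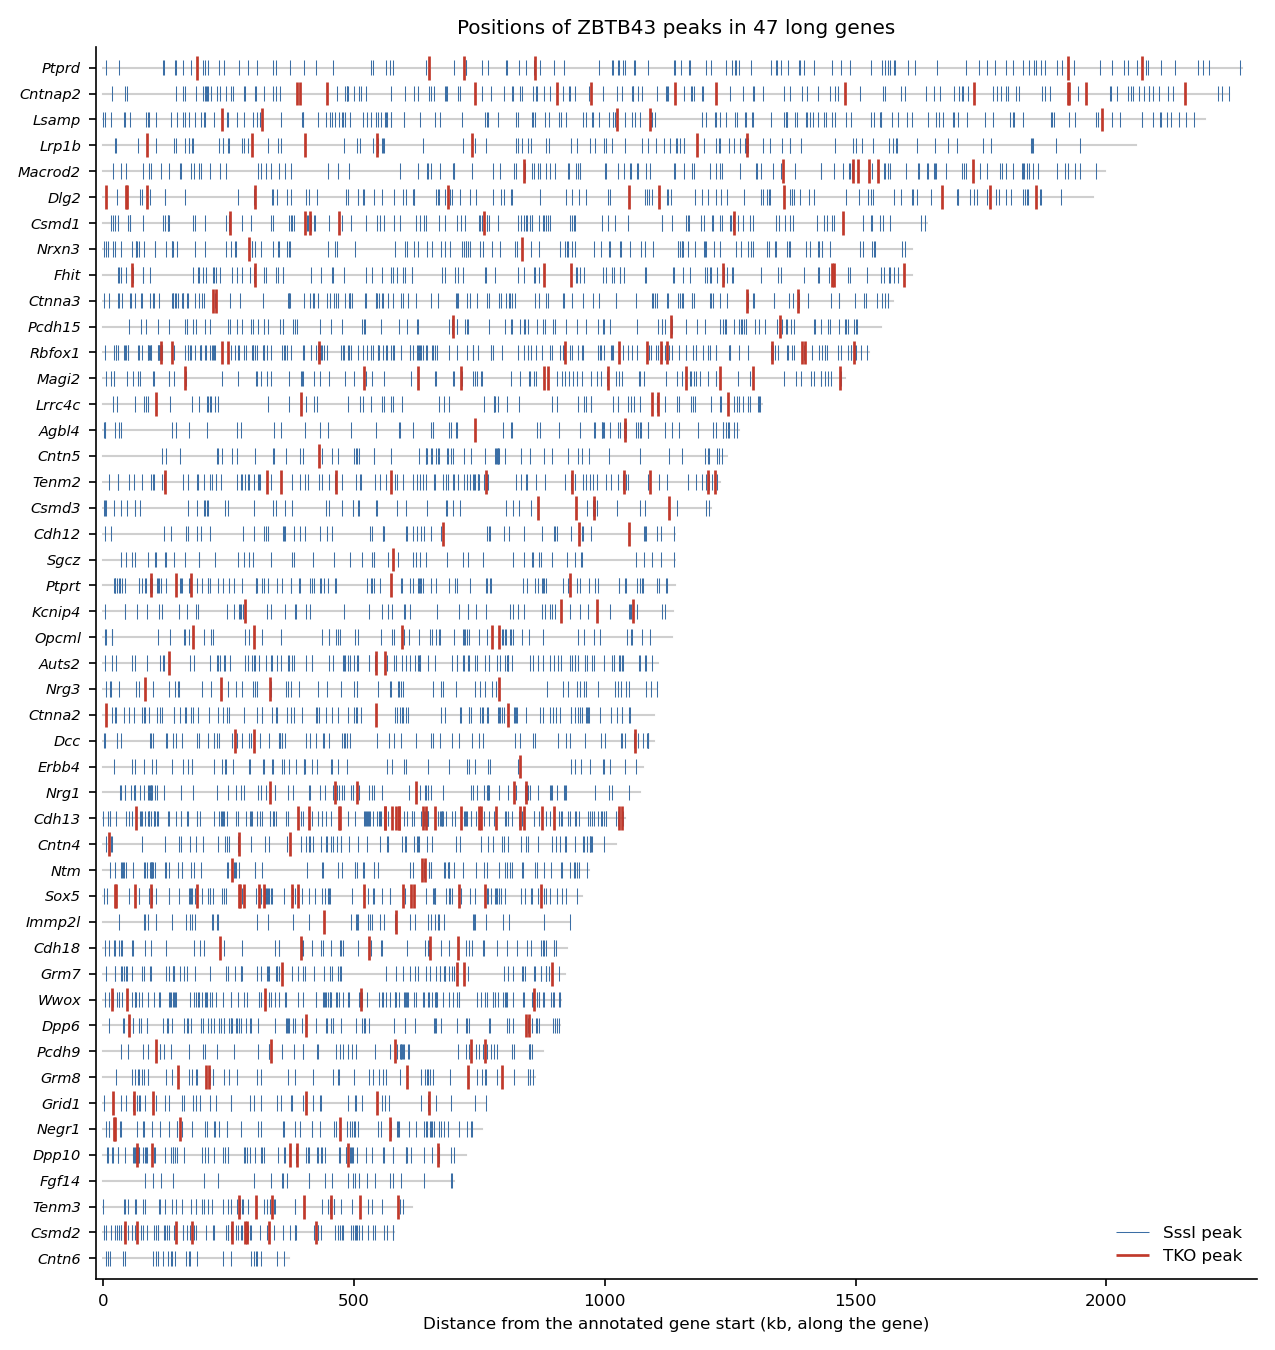
Positions of SssI peaks (thin blue ticks) and TKO peaks (thick red ticks) along the 47 genes, drawn as grey lines from the annotated start and ordered by length; the horizontal axis is distance from the gene start in kb. SssI peaks run through the whole of each gene, and Fgf14 and Cntn6 have no red tick.

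TKO peaks lay almost wholly inside the set of SssI peaks. Of the 274 TKO peaks, 270 or 98.5% (96.3 to 99.4) overlapped an SssI peak by at least 1 bp, beside 99.5% of TKO peaks in other introns. The 4 exceptions were in Lrp1b, Magi2, Rbfox1 and Ctnna3, with scores between 69 and 81. Conversely, 270 of 4340 SssI peaks or 6.22% overlapped a TKO peak. Within introns the share was 6.28% (5.59 to 7.04), beside 8.73% of SssI peaks in other introns (8.53 to 8.95) and 8.42% in those of other long genes (8.04 to 8.81). In 262 of the 270 pairs the SssI peak was the wider, with a median of 400.5 bp against 247 bp.

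The shared SssI peaks were the strong ones. Of the 270, 232 or 85.9% were in the strongest 10% of the whole SssI list, and of the 4070 others 3.44% were. Counted the other way, 62.4% (57.3 to 67.1) of the listed introns' peaks in the strongest 10% had a TKO peak, beside 70.2% (69.1 to 71.2) in other introns. In the next 10% of the list the share was 5.95% (4.12 to 8.51), beside 10.6% (9.91 to 11.4). In each later 10% it was at most 0.862% in the listed introns. The 47 genes also had fewer peaks in the strongest 10% of the SssI list, 8.65% (7.84 to 9.52) of their intron SssI peaks against 10.4% (10.2 to 10.6). For TKO the values were 9.52% (6.58 to 13.6) and 10.4% (9.67 to 11.2), which overlap.

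Peaks in the introns of the 47 genes held fewer CpGs than those in other introns, and so did the introns themselves. The listed introns had 5.99 CpGs per kb, beside 8.84 in other introns and 7.53 in those of other long genes. Of the SssI peaks in the listed introns, 39.9% (38.4 to 41.4) had no CpG, beside 27.8% (27.5 to 28.2) in other introns and 32.7% (32.1 to 33.4) in other long genes. For TKO the shares were 31.9% (26.6 to 37.6), 22.6% (21.6 to 23.7) and 24.6% (22.6 to 26.8). The share of SssI peaks with a TKO peak climbed with the number of CpGs, from 2.45% (1.82 to 3.29) of those with 0 to 4.70% (3.81 to 5.78) with 1 or 2, to 15.6% (12.9 to 18.8) with 3 to 5, and to 24.1% (19.03 to 30.1) with 6 or more. In other introns the shares of the same classes were 2.85%, 5.82%, 13.8% and 27.2%. Applied to the CpG numbers of the listed introns' peaks, those shares give 6.83% and the shares of the other long genes give 7.31%, beside the 6.28% (5.59 to 7.04) observed. CpGs were counted over whole peaks. Across the 47 genes, SssI peaks with a TKO peak were wider than those without, with medians of 400.5 and 192 bp. The part of peak width in the climb with CpG number was not tested.

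**Figure D4:**
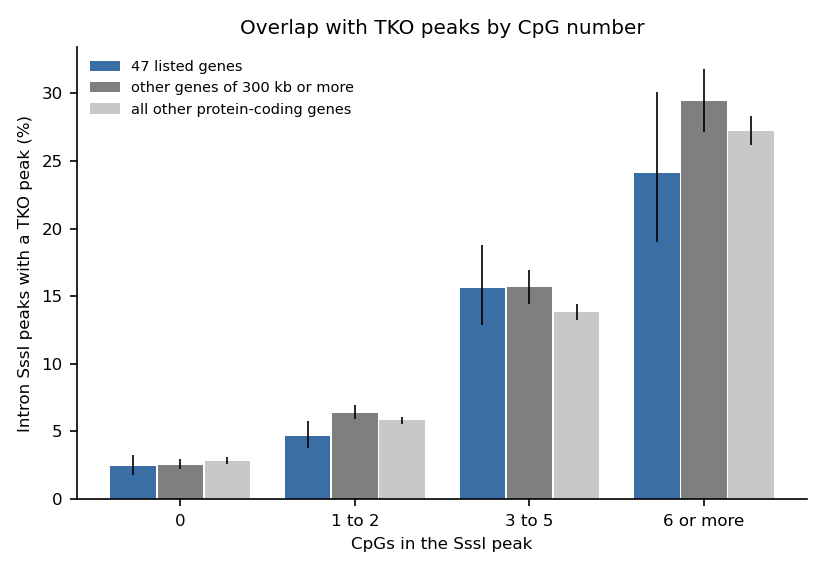
Share of SssI peaks in introns that overlap a TKO peak (vertical axis, %), by the number of CpGs in the SssI peak, in the 47 listed genes (blue), other genes of 300 kb or more (dark grey) and all other protein-coding genes (light grey); bars show 95% Wilson intervals. The share climbs from 2.45% to 24.1% in the listed genes, and only with 1 or 2 CpGs does the interval of the listed genes (3.81 to 5.78) lie clear of that of the other long genes (5.90 to 6.94). CpG numbers are of whole peaks and were not corrected for peak width.

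Within the 47 genes, short CA and TG stretches were more frequent at the shared SssI peaks, which were also mostly the strong ones. In the 200 bp around the midpoint, a window of fixed size that peak width does not affect, at least 5 separate CACAC or GTGTG stretches lay in 80.0% (74.8 to 84.3) of the intron SssI peaks with a TKO peak and in 20.96% (19.7 to 22.2) of those without, with medians of 8 and 3. In the same windows, units that recur at a fixed spacing of 8 to 100 bp were found in 23.3% (18.7 to 28.7) and 2.28% (1.86 to 2.79). Here, a unit was counted when at least 20 words of 12 bases recurred at the same spacing, after words with a period of 6 bases or less were left out. The longest tract differed less, with a median of 55 bp against 47 bp. This measure was also defined after the sequences had been seen and is a description. Other introns had shares of 82.3% and 22.4% for stretches, and 26.8% and 3.20% for recurring units. Strength gave nearly the same contrast in the listed introns. Peaks in the strongest 10% of the SssI list had shares of 78.2% for stretches and 20.7% for units, and the rest had 19.6% and 1.99%. Peak strength and overlap with a TKO peak were not separated.

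**Figure D5:**
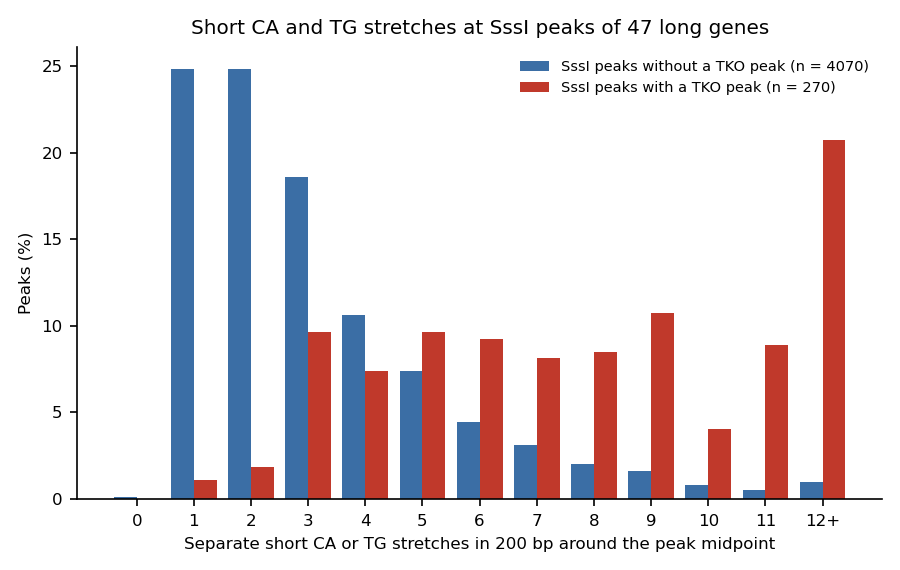
Number of separate short CA or TG stretches (CACAC or GTGTG) in 200 bp around the midpoint of SssI peaks of the 47 genes (horizontal axis) and the share of peaks with that number (vertical axis, %), for peaks with a TKO peak (red, n = 270) and without (blue, n = 4070). Peaks without a TKO peak mostly have 1 to 3 stretches, and 20.7% of those with a TKO peak have 12 or more, against 0.958% of those without.

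The share of alternating tracts that lay under a peak was lower in the listed introns than in other introns, more so for TKO. Of 38981 tracts, 25.1% (24.7 to 25.6) were under an SssI peak and 3.50% (3.32 to 3.69) under a TKO peak, beside 26.99% and 5.03% of those in other introns. One peak can cover several tracts: 1364 tracts lay under a TKO peak, whereas these introns held 273 TKO peaks. The intervals in this paragraph treat tracts as independent and are therefore too narrow, so whether they overlap is a description only. Tracts of 60 bp or more with a CpG were the most often captured, 77.4% (73.6 to 80.8) by SssI and 13.8% (11.0 to 17.02) by TKO peaks, beside 80.9% (80.0 to 81.7) and 18.3% (17.4 to 19.1) elsewhere. For tracts of that length without a CpG, the shares were 41.7% (38.8 to 44.7) and 4.62% (3.52 to 6.03), beside 43.8% (42.9 to 44.7) and 7.01% (6.56 to 7.49). At this length, with a CpG or without, the SssI intervals of listed and other introns overlap and the TKO interval of the listed introns lies below that of the others. Beside the introns of other genes of 300 kb or more, the TKO interval overlaps for tracts with a CpG (17.95%, 16.4 to 19.6) and lies below for tracts without (7.17%, 6.41 to 8.01).

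The strongest peaks on methylated DNA were in Sox5. Its best SssI peak (chr6:144509518-144510157, score 2329) had rank 16 of the whole list, lay 272.1 kb from the gene start outside the longest coding transcript, and held 11 tracts. The TKO peak at the same place, with rank 239, was the third-ranked TKO peak of the 47 genes. A second Sox5 peak, 25.2 kb from the start, had rank 118.5 and 14 CpGs. Next came peaks in intron 2 of Rbfox1 (rank 200.5), intron 1 of Dpp6 (242), intron 2 of Grid1 (259), intron 2 of Grm8 (299), intron 2 of Lrp1b (299) and intron 3 of Magi2 (401). All 8 overlapped a TKO peak, at TKO ranks from 239 to 3948.5, and 7 of them held between 3 and 14 CpGs. The exception was the Lrp1b peak described above, which had 0.

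On unmethylated DNA the best-ranked peak was in intron 32 of Csmd3 (chr15:47813289-47814107, score 2896, rank 93), 978.4 kb from the start, with 10 short tracts and 17 short CA or TG stretches. It was followed by peaks in intron 2 of Tenm3 (rank 176.5), in Sox5 (239), in intron 8 of Pcdh15 (300.5), intron 19 of Dlg2 (304), intron 11 of Tenm3 (356), intron 2 of Tenm2 (652.5) and intron 5 of Lrrc4c (777.5). All 8 overlapped an SssI peak, but 4 of these SssI peaks were outside the first 5% of their list, at ranks from 9669 in Pcdh15 to 16971.5 in Dlg2. The Dlg2 peak held 16 tracts and 0 CpGs in 644 bp. Over the 270 pairs, TKO and SssI scores had a Spearman rho of 0.57, given as a description of peaks that share libraries. Of the strongest 10% of TKO peaks, 26 lay in the listed introns, and all 26 (87.1% to 100%) had at least 5 short stretches in 200 bp, beside 77.3% (71.7 to 82.1) of the remaining 247. In other introns the shares were similar, 95.4% (93.5 to 96.8) and 80.7% (79.65 to 81.7).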

How the data were processed

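Affinity-seq of MBP-ZBTB43 and MBP was analysed for 8 of the 12 libraries described, and 4 sperm libraries were not analysed here. Per the methods, the authors aligned reads to mm10 with bwa mem (BWA 0.7.17), pooled duplicates and called peaks with MACS2 2.2.7.1 at default settings, with MBP as control. The deposited lists give a score per peak, 10 times the −log10 q-value. They hold fewer peaks than their highest peak numbers (179666 for SssI, 15110 for TKO), so some calls are not in them. The methods state a minimum depth for all libraries alike, but the lists hold no read counts, so depth per library and its effect on the number of peaks could not be computed, and scores were not compared between lists.

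Genes came from GENCODE M21 and sequence from GRCm38, which is mm10. The members, gene groups and lists were chosen with earlier results of these data known. Introns were gene-span bases outside any annotated exon, and introns of other genes left out the spans of the 47. Tied scores took their mean rank. Named in full were the 4 densest and 4 sparsest genes of each list, genes holding the 8 best-ranked peaks of each, and genes with 0 peaks. No test was run. Intervals are 95% exact Poisson (counts), exact conditional binomial (ratios) and Wilson (shares), and the limit for a share of 0 is 3 counts. Overlaps were checked with bedtools 2.31.1, and intervals were computed with scipy 1.17.1 under Python 3.11.15. The tract finder, overlaps and recurring-unit measure were tested on simulated data.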

Additional observations from a re-analysis of the deposited data

How the results depend on the processing

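Of 38 alternative values for 14 results, 30 stayed within the counting interval, or for counts within 1.5 times, of the value reported. Leaving out Cdh13 and Sox5, chosen after seeing the data, gave a TKO density ratio of 0.614, and leaving out Cdh13 alone gave 0.654 for TKO and 0.963 for SssI. The share of SssI peaks with a TKO peak was 5.30% when at least 50% of the peak had to be covered and 7.02% when both lists were limited to q-values of at most 1e-05. Longer tracts were more often under a peak, with 36.2% (SssI) and 4.60% (TKO) for tracts of 16 bp or more and 45.97% and 5.01% for 24 bp or more. In 100 bp on either side of the midpoint, 41.6% of TKO peaks had no CpG, against 31.8% in whole peaks, since TKO peaks were mostly wider than that window. For SssI peaks these shares were 41.1% and 39.9%. The SssI density ratio ranged from 0.955 to 1.01. Its interval included 1 except against other genes on the same chromosomes (0.963, 0.933 to 0.993), without Cdh13 (0.933 to 0.994) and without Cdh13 and Sox5 (0.955, 0.925 to 0.986), where it lay below 1. The TKO ratio ranged from 0.614 to 0.747. No paired analysis was possible because the duplicates were pooled before peaks were called and no result comes from a test. The lack of read counts per library, the lack of replicate peak lists and the differing strain and tissue of both DNAs limit every comparison.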
